A study of Mus musculus with 12 samples.

Results

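Intergenic H3K4me3 regions were the stretches of the genome that carried an H3K4me3 peak in at least 1 library, overlapped no annotated gene of any biotype, and lay more than 1 kb from every gene end. They were found by merging the overlapping peaks of the 6 H3K4me3 libraries on chromosomes 1 to 19 and X and setting the merged regions against the RefSeq genes of the mm10 mouse assembly. This gave 4425 intergenic regions among 24594 H3K4me3 regions. Of the others, 12815 (52.1%) had some part within 1 kb of a gene end and are called gene-end regions, and 7354 (29.9%) lay inside genes away from their ends. At the distance limit, the closest regions kept lay 1002, 1003 and 1012 bp from a gene, and the closest regions left out lay 1000, 994 and 993 bp away.

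The libraries were made by CUT&Tag, in which an antibody directs a transposase to cut and tag the DNA around a histone mark in intact cells. The cells came from mouse breast cancer organoids ("tumoroids") derived from PyMT tumours, a mammary tumour model driven by the polyoma middle T oncogene, and all groups had the genotype given as WT. Cultures labelled THC, SR2 or Ctrl (control treatment) were taken 3 days after treatment, with 2 libraries of each treatment for each of the marks H3K4me3 and H3K27me3, numbered 1 and 2 for the batch. The series title names CB2R, a cannabinoid receptor, and the labels do not spell out SR2 or THC or give a dose. Each library used 500000 cells and 150 bp paired-end reads, and nothing in the labels says that the batches were separate animals or separately derived lines. The p-values below therefore measure the spread between these libraries only, which may be technical.

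H3K4me3 is laid down around the start sites of genes that are being transcribed or are poised for it, so a region far from every annotated gene can be an unannotated start site, a strongly active enhancer or a repeat. Many microRNAs (miRNAs, short RNAs that pair with messenger RNAs through a seed near the 5′ end) are cut from long primary transcripts that the annotation does not hold. The annotated miRNA gene is only the hairpin, and the start of its primary transcript can lie far upstream. H3K27me3 is the mark of Polycomb repression and of repressed developmental genes.

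Several of the 12 broadest intergenic regions lay beside miRNA genes, and 17 mature miRNAs of such genes and of further marked clusters are shown because the values below turn on them. They are from RefSeq (mm10, GRCm38.p6), written 5′ to 3′ with the seed, bases 2 to 8, in capitals. The 5 let-7 miRNAs share 1 seed, miR-30a and miR-30c share another, as do miR-181c and miR-181d, and as do miR-200b and miR-429.
let-7a-5p (Mirlet7a-1, chromosome 13, minus strand): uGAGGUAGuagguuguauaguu
let-7f-5p (Mirlet7f-1, chromosome 13, minus strand): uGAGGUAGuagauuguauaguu
let-7d-5p (Mirlet7d, chromosome 13, minus strand): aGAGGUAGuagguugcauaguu
let-7c-5p (Mirlet7c-2, chromosome 15, plus strand): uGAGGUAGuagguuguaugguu
let-7b-5p (Mirlet7b, chromosome 15, plus strand): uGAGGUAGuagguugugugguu
miR-30a-5p (Mir30a, chromosome 1, plus strand): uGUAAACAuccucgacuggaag
miR-30c-5p (Mir30c-2, chromosome 1, plus strand): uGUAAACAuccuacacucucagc
miR-23a-3p (Mir23a, chromosome 8, plus strand): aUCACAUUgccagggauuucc
miR-27a-3p (Mir27a, chromosome 8, plus strand): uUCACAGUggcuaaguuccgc
miR-24-3p (Mir24-2, chromosome 8, plus strand): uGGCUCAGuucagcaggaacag
miR-181c-5p (Mir181c, chromosome 8, minus strand): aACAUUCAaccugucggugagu
miR-181d-5p (Mir181d, chromosome 8, minus strand): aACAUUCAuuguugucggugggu
miR-99a-5p (Mir99a, chromosome 16, plus strand): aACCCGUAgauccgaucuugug
miR-125b-5p (Mir125b-2, chromosome 16, plus strand): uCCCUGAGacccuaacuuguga
miR-200b-3p (Mir200b, chromosome 4, minus strand): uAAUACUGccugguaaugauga
miR-200a-3p (Mir200a, chromosome 4, minus strand): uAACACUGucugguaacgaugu
miR-429-3p (Mir429, chromosome 4, minus strand): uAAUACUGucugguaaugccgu

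The H3K4me3 lists differed in length, from 11924 and 13227 peaks in THC and 14812 and 15189 in SR2 to 18383 and 16442 in Ctrl, and the read depth behind them is unknown. The median summit pileup of gene-end regions, the number of overlapping reads or fragments at the highest point of a peak, was 23 and 49 in THC, 44 and 66 in SR2, and 104 and 80 in Ctrl. THC replicate 1 was the lowest library in both respects. The tissue was checked at gene ends: 25 of 35 luminal epithelial genes and 11 of 20 basal epithelial genes had a gene-end region marked in both Ctrl libraries. The same held for 6 of 18 immune, 3 of 14 endothelial, 8 of 18 fibroblast and 6 of 13 adipocyte genes, and for 52.9% of all protein-coding genes.

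Most intergenic regions were marked in 1 library alone, and few were shared by all. Of the 4425, 3236 (73.1%) had a peak in 1 library, 523 in 2, 291 in 3, 144 in 4, 122 in 5 and 109 (2.46%) in all 6. Among gene-end regions 70.2% were marked in all 6 libraries, and among regions inside genes 14.0% were. The number of intergenic regions marked was 636 and 772 in THC, 1351 and 1025 in SR2, and 1863 and 1348 in Ctrl. As shares of all regions marked in the same library these were 5.55% and 5.97% in THC, 9.31% and 6.86% in SR2, and 10.2% and 8.32% in Ctrl. Regions found in no other library made up 477 and 375 of the THC, 898 and 288 of the SR2, and 804 and 394 of the Ctrl numbers. The THC libraries were the lowest 2 on both scales, and SR2 replicate 1 held the most regions of its own. Replicates shared 121 regions in THC, 324 in SR2 and 878 in Ctrl. With the 2 Ctrl libraries, THC replicate 1 shared 141 and 143 and THC replicate 2 shared 337 and 324. SR2 replicate 1 shared 390 and 359 with them, and SR2 replicate 2 shared 664 and 589. Each treated library thus shared more regions with either Ctrl library, whose lists were longer, than with its own replicate.

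**Figure D1:**
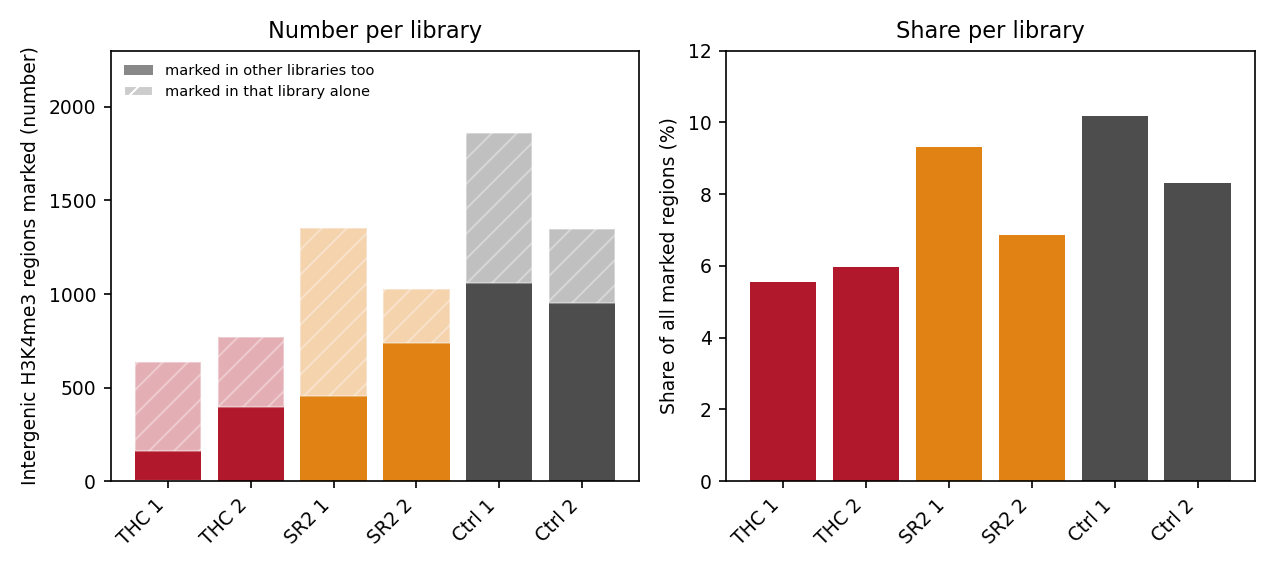
Intergenic H3K4me3 regions marked in each of the 6 libraries, as a number (left panel, solid for regions marked in other libraries too and hatched for regions marked in that library alone) and as a percentage of all regions marked in the library (right panel). The THC libraries had 636 and 772 regions and the Ctrl libraries 1863 and 1348.

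The intergenic regions were small and low. The median length covered by peaks, averaged over the 6 libraries, was 372 ± 61.2 bp in intergenic regions (SD, n = 6), against 1027 ± 127 bp in gene-end regions and 522 ± 51.5 bp in regions inside genes. The median summit pileup averaged 10.0 ± 2.53 in intergenic regions, 61.0 ± 28.7 in gene-end regions and 18.3 ± 3.61 in regions inside genes. Ranked within their own library by −log10 q, intergenic peaks sat at the 12.9th percentile in the median, against the 59.9th for gene-end peaks and the 24.4th for peaks inside genes. Each of these 6 differences was lower in 6 of 6 libraries, with p = 0.03125 by an exact two-sided paired permutation test, the smallest p that 6 libraries allow.

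The median intergenic region lay 10471 bp from the nearest gene, 281 (6.35%) lay over 100 kb away, and the farthest lay 623366 bp away. Regions marked in 1 library had a median distance of 12454 bp, and the medians of those marked in 2, 3, 4, 5 and 6 libraries were 7328, 6836, 7490, 6028 and 6907 bp, with no order among them. Among regions of 1 library the median was 26514 and 17279 bp for the THC libraries, 20252 and 11831 bp for the SR2 libraries, and 7660 and 8100 bp for the Ctrl libraries. The nearest gene was protein-coding for 42.5% of intergenic regions, a long noncoding RNA for 30.7% and a pseudogene for 20.3%. Within all genes of the annotation these biotypes made up 43.7%, 25.6% and 19.9%. Where the strand of the nearest protein-coding gene was given, 52.9% of 3408 intergenic regions lay upstream of it.

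miRNA genes were the nearest gene of 39 intergenic regions (0.881%), while they made up 2.48% of all annotated genes. The share was 0.742% among regions marked in 1 library, 0.956% in 2, 0.344% in 3, 0 of 144 in 4, 4.10% in 5 and 3.67% in all 6. Of the 9 such regions marked in 5 or 6 libraries, 7 lay upstream of the hairpin, 0 lay downstream, and the strand was not given for the other 2. The 9 had 7 nearest miRNA genes and were not all separate cases. Those of Mir23a and Mir181c lay on the same stretch of chromosome 8, and those of Mir99a and Mir125b-2 in a cluster on chromosome 16. Of the 24 marked in 1 library, 12 lay upstream and 9 downstream. These regions were picked out after their values were seen, so the counts are a description.

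The broadest region beside a miRNA gene was chr8:84200802-84202966, which lies 5551 bp upstream of Mir23a, the first hairpin of the cluster that encodes miR-23a, miR-27a and miR-24. It was covered over 1495 and 1865 bp in THC, 1425 and 1897 bp in SR2, and 2165 and 1909 bp in Ctrl. Its summit pileup was 29 and 78 in THC, 60 and 105 in SR2, and 161 and 130 in Ctrl. The lengths overlapped between THC and SR2, all 4 treated libraries were below both Ctrl libraries, and the pileup of both THC libraries and both SR2 libraries was below both Ctrl libraries. Relative to the median region, its length differed by 0.12 on the log2 scale between THC and Ctrl (SE 0.11, limma adjusted p = 0.523) and by -0.14 between SR2 and Ctrl (SE 0.11, limma adjusted p = 0.919). The first of these turned to -0.26 without centring the libraries. A second region, chr8:84203357-84204149, stood between it and Mir23a at 4368 bp, with no peak in THC replicate 1, 338 bp in THC replicate 2, 396 and 467 bp in SR2, and 754 and 793 bp in Ctrl.

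On the other side of the same stretch of chromosome 8 lie Mir181c and Mir181d, on the opposite strand. The region chr8:84183500-84184289 lay 4538 bp upstream of Mir181c, and chr8:84191769-84192826 lay 12807 bp upstream of it. The nearer one covered 0 and 737 bp in THC, 598 and 595 bp in SR2, and 739 and 669 bp in Ctrl. The farther one covered 0 and 670 bp in THC, 798 and 877 bp in SR2, and 963 and 908 bp in Ctrl. Both were unmarked in THC replicate 1 and marked in the 5 other libraries.

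let-7 miRNAs hold back growth and stem cell programmes in many tissues. Upstream of the let-7a-1, let-7f-1 and let-7d cluster, at 7102 bp from Mirlet7a-1, stood chr13:48545375-48546841. Its covered length was 1133 and 1309 bp in THC, 1255 and 1303 bp in SR2, and 1467 and 1365 bp in Ctrl. The summit pileup was 36 and 82 in THC, 74 and 146 in SR2, and 211 and 171 in Ctrl, so that every treated library was below both Ctrl libraries. The gene-end median pileup had the same order of treated below Ctrl libraries. Relative to the median region, the pileup differed by -0.15 on the log2 scale between THC and Ctrl (SE 0.14, limma adjusted p = 0.789) and by -0.03 between SR2 and Ctrl (SE 0.14), and the length by 0.19 between THC and Ctrl (SE 0.08, limma adjusted p = 0.222).

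The interval upstream of let-7c-2 and let-7b on chromosome 15 held 11 intergenic regions between 2 long noncoding RNA genes, D130051D11Rik and Lncppara, which itself holds both hairpins. The number of them marked was 4 and 6 in THC, 7 and 8 in SR2, and 10 and 11 in Ctrl. The broadest, chr15:85669553-85672278, lay 34324 bp upstream of Mirlet7c-2 and covered 874 and 1999 bp in THC, 2125 and 2669 bp in SR2, and 2360 and 2330 bp in Ctrl. THC replicate 1 stood far below the other libraries there, and SR2 and Ctrl overlapped. Relative to the median region its length differed by -0.35 on the log2 scale between THC and Ctrl (SE 0.24, limma adjusted p = 0.410) and by 0.16 between SR2 and Ctrl (SE 0.24, limma adjusted p = 0.993). The THC value rested on THC replicate 1: it was 0.04 without that library and -0.72 without THC replicate 2 (limma adjusted p = 0.0304).

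Among the other regions of the interval, chr15:85645407-85647277 was marked in all 6 libraries, over 1402 and 1482 bp in THC, 1618 and 1767 bp in SR2, and 1871 and 1581 bp in Ctrl. The THC lengths were the lowest 2, and SR2 and Ctrl overlapped. In the fit relative to the median region both signs were positive, at 0.15 between THC and Ctrl (SE 0.10, limma adjusted p = 0.409) and 0.12 between SR2 and Ctrl (SE 0.10, limma adjusted p = 0.930). Closer to let-7c-2, at 26335 bp, chr15:85678775-85680267 covered 867 and 1250 bp in THC, 960 and 1062 bp in SR2, and 1493 and 1483 bp in Ctrl. All 4 treated libraries were below both Ctrl libraries there, and relative to the median region the difference was -0.06 between THC and Ctrl (SE 0.09, limma adjusted p = 0.683) and -0.34 between SR2 and Ctrl (SE 0.09, limma adjusted p = 0.132). At 48338 and 42269 bp upstream, chr15:85657453-85658264 and chr15:85663768-85664333 were marked by both Ctrl libraries and by no THC or SR2 library.

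**Figure D2:**
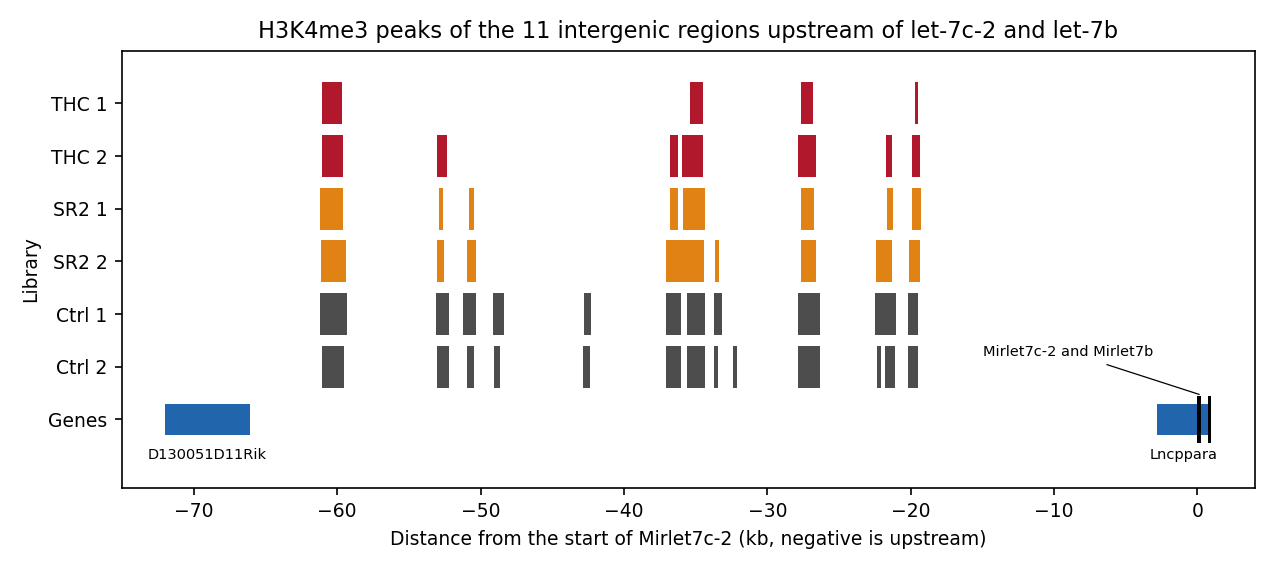
H3K4me3 peaks of the 11 intergenic regions upstream of let-7c-2 and let-7b, by library (rows) and distance from the start of Mirlet7c-2 in kb (horizontal axis, negative is upstream). Each box is a peak, to scale, and the bottom row shows the 2 noncoding RNA genes and the 2 hairpins. The THC libraries had peaks in 4 and 6 of the regions, and the Ctrl libraries in 10 and 11.

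Further miRNA genes had an intergenic region of the same kind. miR-30a and miR-30c-2 share a primary transcript in the mouse, and chr1:23256002-23257525 lay 14743 bp upstream of Mir30a. This region had a nearer gene on its other side, the pseudogene Gm24176 at 10670 bp. It covered 1356 and 1413 bp in THC, 1335 and 1388 bp in SR2, and 1524 and 1487 bp in Ctrl, with all 4 treated libraries below both Ctrl libraries. The sign was the other way relative to the median region, at 0.27 on the log2 scale between THC and Ctrl (SE 0.10, limma adjusted p = 0.193) and 0.01 between SR2 and Ctrl (SE 0.10). Beside Mir30d, at 20549 bp, chr15:68361839-68363691 covered 690 and 1336 bp in THC, 1521 and 1260 bp in SR2, and 1465 and 1326 bp in Ctrl. These groups overlapped.

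On chromosome 16, where Mir99a, Mirlet7c-1 and Mir125b-2 follow one another, chr16:77594418-77595417 lay 3518 bp upstream of Mir99a and chr16:77643296-77644626 lay 1646 bp upstream of Mir125b-2. The region at Mir99a covered 0 and 580 bp in THC, 265 and 745 bp in SR2, and 819 and 718 bp in Ctrl. The region at Mir125b-2 covered 296 and 460 bp in THC, 538 and 798 bp in SR2, and 583 and 1255 bp in Ctrl. In both, the THC libraries were below both Ctrl libraries, and SR2 and Ctrl overlapped.

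The miR-200 family keeps cells epithelial by repressing Zeb1 and Zeb2. The region chr4:156077187-156078187 lay 21436 bp upstream of Mir200b, the first hairpin of the miR-200b, miR-200a and miR-429 cluster. Its nearest gene was the long noncoding RNA gene Gm52714, at 3769 bp on the same side as Mir200b. The region covered 0 and 578 bp in THC, 405 and 466 bp in SR2, and 748 and 918 bp in Ctrl, so that both Ctrl libraries were above all 4 treated ones. Relative to the median region its length differed by -1.01 on the log2 scale between THC and Ctrl (SE 0.57, limma adjusted p = 0.333). Between SR2 and Ctrl it differed by -0.56 (SE 0.57, limma adjusted p = 0.943).

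The broadest intergenic region of all, chr9:44477758-44480402, lay 1242 bp from Gm22540, a small nuclear RNA gene. It covered 1373 and 2282 bp in THC, 1881 and 2494 bp in SR2, and 2251 and 2440 bp in Ctrl. Batch 2 was higher than batch 1 in every group, and the groups overlapped. Its length relative to the median region differed by 0.01 on the log2 scale between THC and Ctrl (SE 0.17, limma adjusted p = 0.965) and by 0.04 between SR2 and Ctrl (SE 0.17, limma adjusted p = 1.000), and both signs turned without centring (-0.36 and -0.10). The region chr13:72638514-72640324 lay 4317 bp downstream of Irx2, a homeobox transcription factor, and covered 504 and 1419 bp in THC, 851 and 1399 bp in SR2, and 1795 and 1796 bp in Ctrl. Both Ctrl libraries were above all 4 treated ones. The median length of gene-end regions had the same order, at 805 and 987 bp in THC, 1010 and 1082 bp in SR2, and 1167 and 1112 bp in Ctrl. Relative to the median region, the length beside Irx2 differed by -0.52 between THC and Ctrl (SE 0.31, limma adjusted p = 0.352). Between SR2 and Ctrl it differed by -0.48 (SE 0.31, limma adjusted p = 0.882).

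**Figure D3:**
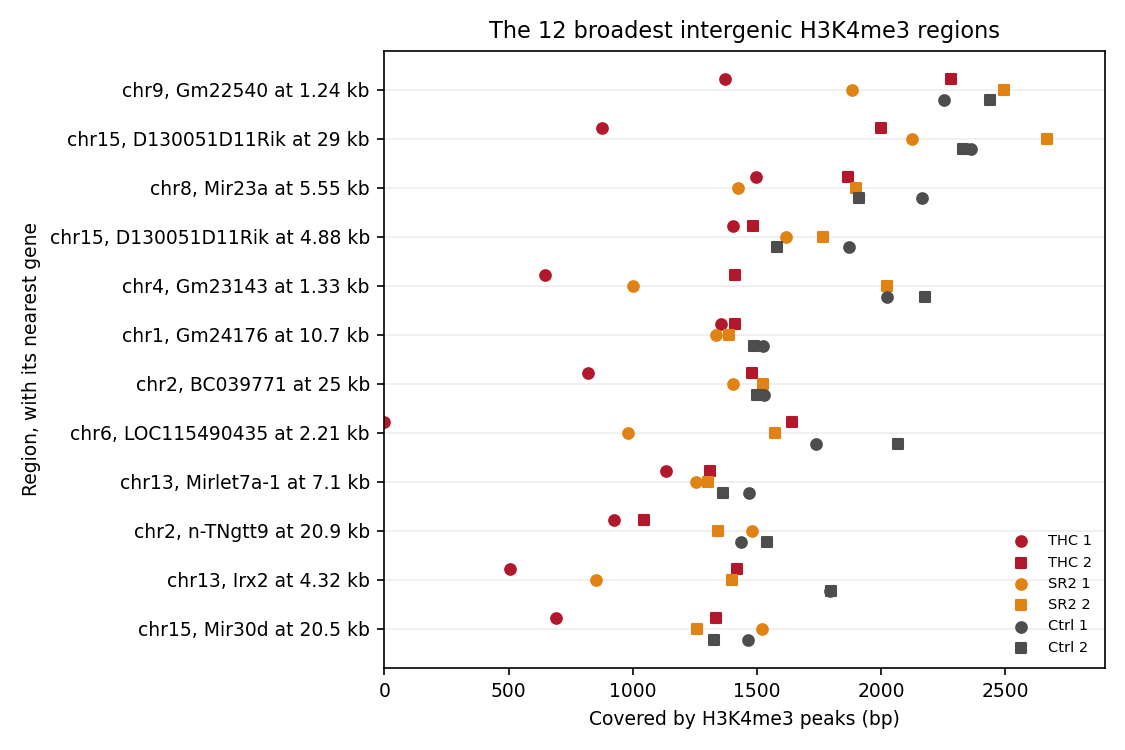
Length covered by H3K4me3 peaks (horizontal axis, bp) in each library for the 12 broadest intergenic regions, each named by its chromosome and its nearest gene with the distance. Circles are replicate 1 and squares replicate 2. At the region beside Irx2 the THC libraries had 504 and 1419 bp and the Ctrl libraries 1795 and 1796 bp.

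Some of the genes listed for cell identity were the nearest protein-coding gene of an intergenic region. This held for 17 of 25 stem cell factors (68.0%), 15 of 30 Notch and Wnt genes, 14 of 35 luminal genes (40.0%), 7 of 18 fibroblast genes, 5 of 14 endothelial genes, 4 of 20 basal genes, 3 of 13 adipocyte genes and 2 of 18 immune genes. Over all protein-coding genes it held for 14.7%. Most intergenic regions were marked in 1 library alone. With regions marked in at least 2 libraries it held for 6 stem cell factors (24.0%), 7 Notch and Wnt genes and 8 luminal genes (22.9%). The count was 2 for fibroblast genes (11.1%). It was 1 each for endothelial (7.14%), basal (5%), adipocyte (7.69%) and immune genes (5.56%). Over all protein-coding genes the share was 4.81%.

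Among the regions beside luminal genes, chr5:134965834-134967028 lay between Cldn4 and Cldn3, which encode tight junction proteins. It covered 0 and 471 bp in THC, 574 and 517 bp in SR2, and 927 and 957 bp in Ctrl, with both Ctrl libraries above all 4 treated ones. Relative to the median region its length differed by -1.26 on the log2 scale between THC and Ctrl (SE 0.50, limma adjusted p = 0.215). Between SR2 and Ctrl it differed by -0.48 (SE 0.50, limma adjusted p = 0.948). Upstream of Epcam, an epithelial adhesion gene, at 18821 bp, chr17:87616539-87617157 covered 0 and 334 bp in THC, 0 and 306 bp in SR2, and 602 and 311 bp in Ctrl. Its groups overlapped between THC and Ctrl. Near Esrp1, a splicing regulator of epithelial cells, chr4:11405035-11405457 had no peak in THC, 376 and 399 bp in SR2, and 399 and 313 bp in Ctrl.

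Beside the transcription factor genes of the stem cell list, chr11:85843894-85844865 lay 1945 bp from Tbx2, a T-box repressor, and covered 357 and 513 bp in THC, 475 and 972 bp in SR2, and 806 and 536 bp in Ctrl. Both THC libraries were below both Ctrl libraries there, and SR2 overlapped both groups. Upstream of Id3, an inhibitor of basic helix-loop-helix factors, chr4:136134835-136135757 covered 0 and 518 bp in THC, 366 and 738 bp in SR2, and 676 and 403 bp in Ctrl.

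Of the Notch and Wnt genes, the receptor Notch3 had chr17:32099520-32100789 at 20030 bp downstream, and the ligand Dll1 had chr17:15325975-15326783 at 40570 bp downstream. The region near Notch3 covered 0 and 652 bp in THC, 575 and 643 bp in SR2, and 1107 and 1235 bp in Ctrl. The region near Dll1 covered 0 and 0 bp in THC, 320 and 678 bp in SR2, and 763 and 801 bp in Ctrl. In both, the Ctrl libraries were above all 4 treated ones, an order that the median length of gene-end regions also had. Genes of other lists had it too. A region 3261 bp from the immune gene Spi1 covered 0 bp in THC, 270 and 635 bp in SR2, and 679 and 695 bp in Ctrl. The regions of Dcn (fibroblast) and Flt1 (endothelial) had no treated peak. In Ctrl they covered 507 and 549 bp, and 393 and 267 bp. Other regions were marked in 1 treated library alone: those of Ptprc and Cdh5 in SR2 replicate 1, and those of Zeb2 and Lpl in THC replicate 2.

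THC was compared with Ctrl to see how the regions differed after treatment. THC libraries had fewer intergenic regions, 704 ± 96.2 against 1606 ± 364 in Ctrl (SD, n = 2 each), a ratio of 0.438. The ratio was 0.341 in batch 1 and 0.573 in batch 2. The two-sided exact permutation p was 0.333, and 2 libraries against 2 cannot give a smaller one. The share of all marked regions was 5.76 ± 0.294% in THC and 9.25 ± 1.31% in Ctrl, again with an exact permutation p of 0.333. The same ratio was 0.830 for gene-end regions and 0.451 for regions inside genes. The direction depended on the length of the lists: when each library was cut to its 11924 highest peaks by −log10 q, the ratio was 1.64. In bulk libraries, fewer cells with the mark and less mark in each cell cannot be told apart. Neither can be told apart from weaker libraries, as the read depth is unknown. The gene-end median pileup was 23 and 49 in THC and 104 and 80 in Ctrl.

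Region by region, 547 of the 878 intergenic regions marked in both Ctrl libraries (62.3%) had no peak in either THC library. Over all H3K4me3 regions the same share was 17.5%, with 8.51% for gene-end regions and 40.2% for regions inside genes. In the other direction, 6 of 121 intergenic regions marked in both THC libraries (4.96%) had no peak in either Ctrl library, against 0.108% of all regions. The larger number turned on both Ctrl libraries being asked for: it was 1001 of 1354 without Ctrl replicate 1 and 1502 of 1866 without Ctrl replicate 2. The smaller number was 417 without THC replicate 1 and 489 without THC replicate 2. With lists of equal length, 48 of the 221 regions marked in both Ctrl libraries had no peak in either THC library. The share over all H3K4me3 regions was not computed for these alternatives. They therefore do not show whether intergenic regions differed from the others there.

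The broadest of those without a THC peak included chr6:94717611-94718753, 17312 bp upstream of Lrig1, which restrains growth factor receptors. It had no peak in THC or SR2 and covered 1061 and 1027 bp in Ctrl, at a summit pileup of 8 in both. At chr16:24012176-24013452, 23309 bp upstream of the repressor gene Bcl6, THC had no peak, SR2 had 0 and 1197 bp, and Ctrl had 1194 and 1260 bp. At chr13:37963591-37964901, between Rreb1 and Ssr1, THC had no peak, SR2 had 0 and 262 bp, and Ctrl had 1077 and 1282 bp. Near Bcor, a Polycomb corepressor gene, chrX:12005959-12007493 had no peak in THC, 0 and 509 bp in SR2, and 1424 and 763 bp in Ctrl. Near Wnt7b, chr15:85613310-85614835 had no peak in THC, 691 and 775 bp in SR2, and 1319 and 991 bp in Ctrl. In each of these the SR2 values were at or below the higher Ctrl value, and their summit pileups in Ctrl ranged from 8 to 48.

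Of the 6 regions marked in both THC libraries and neither Ctrl library, those named first are chr17:13590976-13591521, chrX:48739599-48740008 and chr8:20321459-20321888. The first covered 406 and 322 bp in THC, 546 and 0 bp in SR2, and 0 bp in Ctrl. The next covered 410 and 361 bp in THC, 357 and 341 bp in SR2, and 0 bp in Ctrl. The last covered 388 and 415 bp in THC, 0 and 378 bp in SR2, and 0 bp in Ctrl. All 3 overlapped an H3K27me3 peak, and only 1 of the 6 remained after regions overlapping H3K27me3 were left out. That region, chr9:30137803-30138299, covered 369 and 388 bp in THC and had no peak in SR2 or Ctrl.

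**Figure D4:**
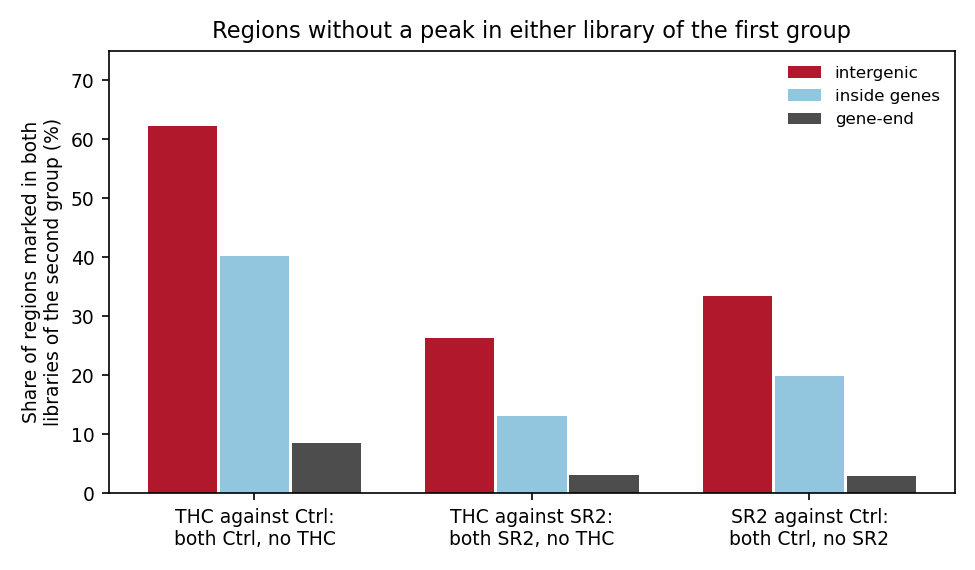
Share of the regions marked in both libraries of the second-named group that had no peak in either library of the first-named group (vertical axis, %), for intergenic regions, regions inside genes and gene-end regions. For THC against Ctrl these shares were 62.3%, 40.2% and 8.51%.

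THC and SR2 differed in the same direction. THC had 704 ± 96.2 intergenic regions, against 1188 ± 231 in SR2 (SD, n = 2 each), a ratio of 0.593, with 0.471 in batch 1, 0.753 in batch 2 and an exact permutation p of 0.333. With lists of equal length the ratio was 1.49. Of the 324 intergenic regions marked in both SR2 libraries, 85 (26.2%) had no peak in THC, against 5.08% of all regions, and 2 of 121 marked in both THC libraries had none in SR2, against 0.127%. The count of 85 was 200 without THC replicate 2, 700 of 1026 without SR2 replicate 1 and 1064 of 1353 without SR2 replicate 2. The count of 2 was 4 and 7 without SR2 replicates 1 and 2, and 425 and 490 without THC replicates 1 and 2. No share over all regions was computed for these alternatives. Near Ier3, an immediate early gene, chr17:35812923-35813984 had no peak in THC, 300 and 974 bp in SR2, and 1062 and 668 bp in Ctrl. Between Col1a1, a collagen gene, and Sgca, chr11:94957784-94958851 had no peak in THC, 793 and 494 bp in SR2, and 738 and 936 bp in Ctrl. SR2 and Ctrl overlapped in both.

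SR2 was set against Ctrl in the same way. SR2 had 1188 ± 231 intergenic regions, against 1606 ± 364 in Ctrl (SD, n = 2 each), a ratio of 0.740, with 0.725 in batch 1 and 0.760 in batch 2. SR2 replicate 1 (1351) lay above Ctrl replicate 2 (1348), and the exact permutation p was 0.667. The share of marked regions was 8.08 ± 1.73% in SR2 and 9.25 ± 1.31% in Ctrl, an exact permutation p of 0.667, and the difference of -1.16 percentage points was 0.07 without SR2 replicate 2. With lists of equal length the ratio was 1.10. Of the 878 intergenic regions marked in both Ctrl libraries, 293 (33.4%) had no peak in SR2, against 7.84% of all regions, 2.92% of gene-end regions and 19.9% of regions inside genes. In the other direction the count was 12 of 324 (3.70%), against 0.255% of all regions. The count of 293 was 705 without Ctrl replicate 1, 1121 without Ctrl replicate 2 and 535 without SR2 replicate 2, and the count of 12 was 25 and 20 without Ctrl replicates 1 and 2 and 307 and 943 without SR2 replicates 1 and 2. Here too the alternatives were not computed over all regions. Both treatments were set against the same Ctrl libraries.

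Named regions of the last group include chr8:63738532-63739642, which had no peak in THC or SR2 and covered 1111 and 741 bp in Ctrl. Upstream of Itpr3, a calcium release channel gene, at 4983 bp, chr17:27050660-27052018 had 0 and 429 bp in THC, no peak in SR2, and 1359 and 336 bp in Ctrl.

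For a test of covered length, limma was fitted to log2 of the covered bp plus 200, with the libraries centred on the median of regions marked in all 6. Of 4425 intergenic regions 1189 were marked in at least 2 libraries and entered the fit among 15771 regions. At an adjusted p under 0.05, limma called 0 intergenic regions in each comparison, and 0.0% of all regions. At an unadjusted p under 0.05, 456 of the 1189 (38.4%) were narrower and 9 wider in THC than in Ctrl, against 18.4% and 4.41% of all regions. Between THC and SR2, 81 (6.81%) were narrower and 6 wider in THC, against 6.84% and 1.84%, a narrower share at that of all regions. Between SR2 and Ctrl, 308 (25.9%) were narrower and 13 wider in SR2, against 8.91% and 0.653%.

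These unadjusted counts followed the choice of regions and libraries and are given as a description only. Of the 1189 regions, 262 were marked in the 2 Ctrl libraries alone, so that they entered the fit through Ctrl and could only be narrower in the treated groups. With every region kept, 325 of 4425 (7.34%) were narrower in THC than in Ctrl, against 2702 of 24594 regions in all, and 277 (6.26%) were narrower in SR2 than in Ctrl, against 5.36%. Under quantile normalization 54 were narrower and 107 wider in THC than in Ctrl, 19 narrower and 38 wider in THC than in SR2, and 84 narrower and 27 wider in SR2 than in Ctrl. Without Ctrl replicates 1 and 2 in turn, the share narrower was below that of all regions for THC and SR2 against Ctrl. The median log2 differences between THC and Ctrl were then -0.96 and -1.06, against -0.08 and -0.12 over all regions. Between SR2 and Ctrl they were -0.43 and -0.56, against -0.02 and -0.03. The THC to Ctrl median was -1.05 without THC replicate 2 (-0.18 over all regions). The SR2 to Ctrl median was -1.16 without SR2 replicate 2 (-0.04 over all regions). The THC to SR2 median was -0.47 without either Ctrl replicate, -0.59 without SR2 replicate 1 and -0.31 without THC replicate 2.

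The median log2 difference of these 1189 regions was -0.97 between THC and Ctrl, -0.38 between THC and SR2 and -0.55 between SR2 and Ctrl, against -0.15, -0.03 and -0.03 over all regions tested. A region unmarked in a library entered the fit at 0 bp. Under quantile normalization they were 0.13, 0.13 and -0.02, so that both THC medians changed sign. With regions marked in 1 library included they were -0.15, 0.24 and 0.14, so that the medians of THC against SR2 and of SR2 against Ctrl changed sign. Without SR2 replicate 2 the median of THC against SR2 was 0.19. The number of calls also depended on these choices. With 50 bp in place of 200 bp, limma called 293 of 1189 intergenic regions between THC and Ctrl. It called 0 between THC and SR2 and 268 between SR2 and Ctrl. Of the 293 and 268, 290 and 262 were narrower, against 1397 and 1032 of all 15771 regions. Without centring it called 332, 0 and 252. Of the 332 and 252, 329 and 246 were narrower, against 1908 and 970 of all regions. Without THC replicate 2 calls appeared between THC and Ctrl and between THC and SR2. Their share was smaller among intergenic regions than among all regions.

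The 109 regions marked in all 6 libraries could be compared without such zeros. Their median log2 difference in length was -0.08 between THC and Ctrl, 0.01 between THC and SR2 and -0.02 between SR2 and Ctrl, with 67, 53 and 63 of them below 0. Summit pileup, a measure added after the data were seen, was fitted in the same way over the 10140 regions marked in all 6 libraries. limma called 5 intergenic regions between THC and Ctrl, all higher in THC relative to the median region, against 0.217% of all regions. It called 1 between SR2 and Ctrl, against 0.0197%, and 0 between THC and SR2, against 0.0%. At an unadjusted p under 0.05, 20 of the 109 were higher and 0 lower in THC than in Ctrl, against 5.36% and 3.12% of all regions. Likewise 13 were higher and 2 lower in THC than in SR2, against 3.84% and 2.5%, and 8 were higher and 2 lower in SR2 than in Ctrl, against 2.21% and 1.73%. Without centring, the median log2 difference over all regions was -1.64 between THC and Ctrl and -0.84 between SR2 and Ctrl. For the 109 it was -1.48 and -0.80, against 0.18 and 0.05 with centring. limma then called 78 of them lower and 1 higher in THC than in Ctrl, against 8402 lower and 1 higher of all 10140 regions. Between SR2 and Ctrl it called 0 of them and 0 of all regions. Without THC replicate 2 the centred median log2 difference between THC and Ctrl was 0.29 for the intergenic regions tested, against 0.01 over all regions. The 1 call in SR2 became 0 without Ctrl replicate 1 or SR2 replicate 1, 4 without Ctrl replicate 2, and 3 and 2 without THC replicates 1 and 2. With the batch as a replicate block it became 2, the added region being chr15:75085504-75087038 (1.21 on the log2 scale, SE 0.23, limma adjusted p = 0.0218).

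The highest of the 5 was chr2:98666579-98667313, whose summit pileup was 225 and 363 in THC, 386 and 222 in SR2, and 124 and 177 in Ctrl. All 4 treated libraries were above both Ctrl libraries. Relative to the median region the log2 difference was 2.61 between THC and Ctrl (SE 0.31, limma adjusted p = 8.64e-05) and 1.83 between SR2 and Ctrl (SE 0.31, limma adjusted p = 0.0470). Without centring these differences were 0.95 and 0.98, and neither passed. The SR2 call was also lost without Ctrl replicate 1 (1.36) and without SR2 replicate 1 (1.11).

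At chr15:75085504-75087038 the pileup was 155 and 232 in THC, 165 and 165 in SR2, and 106 and 155 in Ctrl, and THC and Ctrl met at 155. At chr3:5860346-5860824 it was 137 and 216 in THC, 195 and 149 in SR2, and 104 and 166 in Ctrl. Relative to the median region these differed between THC and Ctrl by 2.22 (SE 0.24, limma adjusted p = 3.76e-05) and 2.05 (SE 0.28, limma adjusted p = 0.000499) on the log2 scale. Without centring the differences were 0.57 and 0.39, and neither passed.

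The last 2 were lower. At chr17:54759831-54761384 the pileup was 10 and 15 in THC, 12 and 12 in SR2, and 6 and 7 in Ctrl, and both Ctrl libraries were below all treated ones. Its difference between THC and Ctrl was 2.58 (SE 0.48, limma adjusted p = 0.0184), and 0.92 without centring (limma adjusted p = 0.0415). The call was lost without Ctrl replicate 1 (2.25), without either SR2 replicate (2.57 and 2.58) and without THC replicate 1 (2.27). At chr18:3005511-3005978 the pileup was 29 and 47 in THC, 39 and 32 in SR2, and 17 and 34 in Ctrl, which overlapped. Its difference was 2.28 (SE 0.37, limma adjusted p = 0.00323), and 0.62 without centring, which did not pass.

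**Figure D5:**
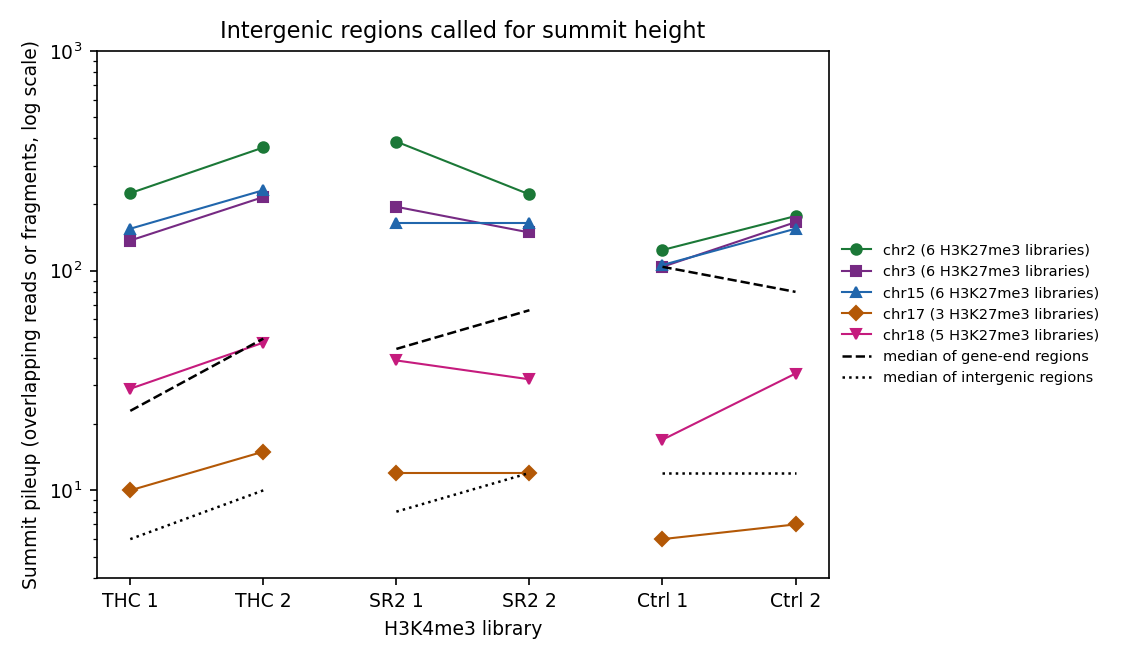
Summit pileup (vertical axis, log scale) in each H3K4me3 library for the 5 intergenic regions called by limma between THC and Ctrl, named by chromosome with the number of H3K27me3 libraries that had an overlapping peak. Dashed and dotted lines are the median of gene-end and of intergenic regions in each library. The region on chromosome 2 had 225 and 363 in THC and 124 and 177 in Ctrl, while the gene-end median was 23 and 49 in THC and 104 and 80 in Ctrl.

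All 5 overlapped H3K27me3 peaks, in 6, 6, 6, 3 and 5 of the 6 H3K27me3 libraries in the order of chromosomes 2, 3, 15, 17 and 18. No region was left out for high signal in both marks, and whether these 5 are repeats was not tested. H3K27me3 overlapped few intergenic regions otherwise: 163 of 4425 (3.68%) met a peak of any H3K27me3 library by at least 1 bp, against 7.85% of gene-end regions and 2.56% of regions inside genes. By H3K27me3 library the overlapped number was 54 and 27 in THC, 71 and 13 in SR2, and 114 and 41 in Ctrl, with lists of 983 and 70, 839 and 157, and 2708 and 386 peaks. Without Ctrl replicate 1 the share was 2.49%. Only 4 intergenic regions met a peak in all 6 H3K27me3 libraries and 5 met one in 5 of them.

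Some of those regions had nearly the same ends in every H3K4me3 library. At chr2:98666579-98667313 the covered length was 735 and 735 bp in THC, 735 and 732 bp in SR2, and 732 and 734 bp in Ctrl. At chr3:5860346-5860824 it was 474 and 474 bp in THC, 474 and 474 bp in SR2, and 468 and 473 bp in Ctrl. Over the 109 regions marked in all 6 libraries, the summed spread of both ends had a median of 554 bp, and 3 regions were under 20 bp while the next had 146 bp.

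H3K27me3 overlap differed between the sets of libraries that marked a region. Of the 26 intergenic regions marked in SR2 replicate 1 and THC replicate 2 alone, 22 (84.6%) overlapped an H3K27me3 peak, against 3.68% of all intergenic regions. Of the other H3K4me3 regions marked in the same 2 libraries alone, 8 of 12 did. The count was 4 of 5 for intergenic regions marked in SR2 replicate 1 and THC replicate 1 alone, 5 of 5 in both SR2 libraries and THC replicate 2, 4 of 6 in Ctrl replicate 1, SR2 replicate 1 and THC replicate 2, and 3 of 6 in the 2 SR2 libraries alone. These sets were picked after their values were seen. The 26 regions met the H3K27me3 lists of THC in 9 and 7 cases, of SR2 in 17 and 0, and of Ctrl in 19 and 6. SR2 replicate 1 and THC replicate 2 are of different treatments and batches. Intergenic regions overlapped by H3K27me3 numbered 32 and 79 in THC, 103 and 35 in SR2, and 28 and 23 in Ctrl H3K4me3 libraries, so that SR2 replicate 1 and THC replicate 2 were the highest. With the regions overlapping H3K27me3 left out, the ratio of intergenic regions was 0.410 for THC against Ctrl, 0.580 for THC against SR2 and 0.708 for SR2 against Ctrl.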

How the data were processed

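The 12 CUT&Tag libraries covered 2 histone marks, with 2 libraries for each mark and treatment. Per the submitters' processing notes, the tools used included cutadapt 5.2, Bowtie2 2.5.4, SAMtools 1.8, Picard, deepTools, bedtools and MACS3 on mm10, and no role or setting of each is given. The deposited files are peak lists, called per library by their peak names, with a score, a fold enrichment ratio over background, and −log10 p and q values for each peak, all the authors' own. In the deposited lists the score is the whole part of 10 times −log10 q for 99.9% of peaks in the library where this held least.

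Overlapping H3K4me3 peaks were merged and set against 49554 RefSeq genes on chromosomes 1 to 19 and X (GRCm38.p6). No genome sequence of this build was used, and no list of loci with high signal was used to leave out regions. A region was marked in a library where a peak of it overlapped, and its covered bp are the summed peak lengths there. The summit pileup was recovered from the deposited fold and −log10 p. Numbers and shares per library were compared by exact permutation tests, and covered length and pileup by limma 3.58.1 in R 4.3.3 over all regions, with Benjamini-Hochberg adjustment at 0.05. The steps were tested on simulated data and the merging was checked with bedtools 2.31.1.

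The labels give the replicate number as the batch, so same-numbered libraries form pairs. Their deviations from the group means correlated at -0.06, 0.03 and 0.05. Replicates had the same covered length at 24 (THC), 68 (SR2) and 112 (Ctrl) of the 10140 regions marked in all 6 libraries and were counted as separate.

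The intergenic regions and gene lists were chosen with earlier results of these data known. Regions named were the 12 broadest, the 6 farthest from a gene among those marked in all 6 libraries, the broadest of those marked in both libraries of one group and neither of another, the 5 with most H3K27me3 overlap, the broadest beside listed genes (3 per list) and the 5 broadest pairs within 10 kb. Of these the ones whose values the text turns on are given, and some are not reported here. Regions beside miRNA genes and summit heights were chosen after values were seen. Alternatives covered the distance limit, biotypes, peak threshold, list length, merging, pseudocount, scaling, batch block and each library left out.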

Additional observations from a re-analysis of the deposited data

Results flagged for a closer look

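H3K4me3 peaks were also found on 1 unplaced contig of the assembly, which lies outside the chromosomes used above. The number was higher in every treated library than in both Ctrl libraries, with 13 and 21 peaks in THC, 14 and 15 in SR2, and 8 and 11 in Ctrl. The means were 17.0 in THC, 14.5 in SR2 and 9.50 in Ctrl. The groups of 2 libraries are too small for a check of single outlying libraries.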

How the results depend on the processing

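With an equal number of peaks per library, the THC to Ctrl, THC to SR2 and SR2 to Ctrl ratios were 1.64, 1.49 and 1.10 in place of 0.438, 0.593 and 0.740, and the differences in share were 1.77, 1.49 and 0.286 percentage points in place of -3.49, -2.32 and -1.16. The cause was not tested. The SR2 to Ctrl share difference was also 0.0321 for regions over 5 kb from genes, and -2.39 to 0.0655 with 1 library left out. The labels' batch pairs the libraries. With the replicate block the ratios were 0.442, 0.595 and 0.743, limma called 0 regions for length in each comparison, and for summit pileup it called 5, 0 and 2.

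Intergenic regions numbered 1333 at −log10 q of at least 5 and 1246 with equal lists. Their median distance was 15548 bp over 5 kb from genes and 22081 bp from protein-coding genes alone. The H3K27me3 share was 2.24% at the stricter H3K27me3 threshold and 2.49% to 3.68% with 1 library left out.

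Regions marked in both Ctrl and neither THC library numbered 203 at 500 bp or more, 351 over 5 kb away, 323 at the stricter threshold, 48 with equal lists and 546 to 1502 with 1 library left out. The reverse counts were 0, 1 (stricter), 1 (no H3K27me3 overlap) and 6 to 489. Against SR2, the SR2-only counts were 26, 41 (stricter), 24 (equal), 137 (protein-coding genes alone) and 85 to 1064, and the THC-only counts 0, 0 (stricter), 4 (protein-coding), 1 (no H3K27me3) and 2 to 490. For SR2 against Ctrl the Ctrl-only counts were 121, 185 (over 5 kb), 168, 17 and 293 to 1121, and the SR2-only counts 1, 1, 6, 3 (no H3K27me3) and 12 to 943. No share over all H3K4me3 regions was computed under these alternatives, so the counts describe intergenic regions alone.

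limma's length calls between THC and Ctrl were 293 with 50 bp added, 332 without centring, 1 with all regions, 359 with only the 4 libraries compared and 0 to 70 with 1 library left out. Those between SR2 and Ctrl were 268 and 252, and those between THC and SR2 were 0 to 36 with 1 library left out. Pileup calls between THC and Ctrl were 79 without centring (78 lower in THC) and 98 over the background (96 lower in THC), where the 5 reported were all higher, and 4 to 11 with 1 library left out. Those between SR2 and Ctrl were 0, 0 and 0 to 4, and those between THC and SR2 were 0 to 1.

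The length difference from gene-end regions was -682 to -642 bp and the percentile difference -47.7 to -46.4 with 1 library left out, at p = 0.0625 by the exact permutation test, the smallest 5 libraries allow. The region at Mir23a turned to -0.26 without centring (THC). The region at Gm22540 turned to -0.36 without centring, -0.0311 with 1000 bp added, -0.0623 under quantile normalization and ranged from -0.16 to 0.21 (THC), and for SR2 to -0.10 without centring and -0.10 to 0.17. The broadest let-7 region ranged from -0.72 to 0.0358 (THC). Of the alternatives to the values that answer a comparison, 210 were counted as the same, 69 as moved, 12 as weaker and 8 as reversed. Ratios and share differences were judged by direction alone, so their size can differ among the 210. Depth is unknown, and the exact permutation test cannot reach p under 0.05 with 2 libraries a group.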
